A study of Mus musculus with 2 samples.

Results

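The AP-1 and EGR immediate early factors are DNA-binding proteins. Most of their genes, though not all, are switched on within minutes of a stimulus, with no need for new protein synthesis. These factors were represented by 10 genes (Fos, Fosb, Fosl2, Jun, Junb, Jund, Atf3, Egr1, Egr2 and Egr3) of the 18193 named genes on a mouse 3' expression array. Every probe set, meaning a set of short array probes read as 1 signal, that the platform annotation assigned to 1 of these genes alone was taken, which gave 15 of 45101 probe sets. Signals were compared between macrophages that live in the peritoneal cavity of untreated mice (the resident array) and macrophages taken 3 days after mice were injected in the peritoneum with 1 mL of thioglycollate at 3% (the elicited array). Thioglycollate broth is a sterile irritant that recruits leukocytes. Both groups came from C57BL/6J mice of 8 weeks, and no genetic change was given for either. In both, cells adhered to a dish for 2 h, loose cells were washed off and the remaining cells were scraped off for RNA, per the labels' protocols. The series description speaks of culture overnight instead, so the time in culture before RNA extraction is uncertain, and how many mice were used per array is not stated in the sources used here. Each group was 1 array, so no value carries a replicate error, no difference was tested, and precision is limited by the number of arrays.

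AP-1 is a dimer of basic leucine zipper proteins, in which a JUN protein pairs with another JUN protein, a FOS protein or an ATF protein and binds short palindromic DNA sites. FOS proteins need a JUN partner to bind, and JUNB and JUND can replace JUN in these dimers with weaker or different activity. EGR proteins bind GC-rich sites through zinc fingers and act downstream of the same MAP kinase cascades. In macrophages both families respond to adhesion, growth factors, microbial products and stress, and they control genes of cytokines, proteases and matrix.

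On the elicited array 3 members had at least 2-fold higher signals, namely Atf3, Fos and Jun. Another 3 had at least 2-fold lower signals, namely Egr3, Fosl2 and Junb. Jund, Egr1 and Egr2 lay within 2-fold, and Fosb was above background on neither array. Background was a signal floor of 82.2, the 95th percentile over both arrays of 126 probe sets of odorant, pheromone and bitter taste receptor genes and of keratin-associated protein genes, families presumed silent in macrophages. Of all 11499 genes above the floor on at least 1 array, the share at least 2-fold higher in elicited cells was 8.04% and the share at least 2-fold lower was 11.8%. Of the 9 members above it, 6 passed 2-fold in either direction, beside 19.8% of all genes. The median log2 ratio of elicited over resident signal was 0.05 over these 9 members and -0.03 over all genes. The members' median moved from -0.25 to 0.36 over 5 scalings of the arrays, so it has no settled sign. The log2 ratios of the members, each taken by its brightest probe set, ran from -3.31 to 2.22.

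**Figure D1:**
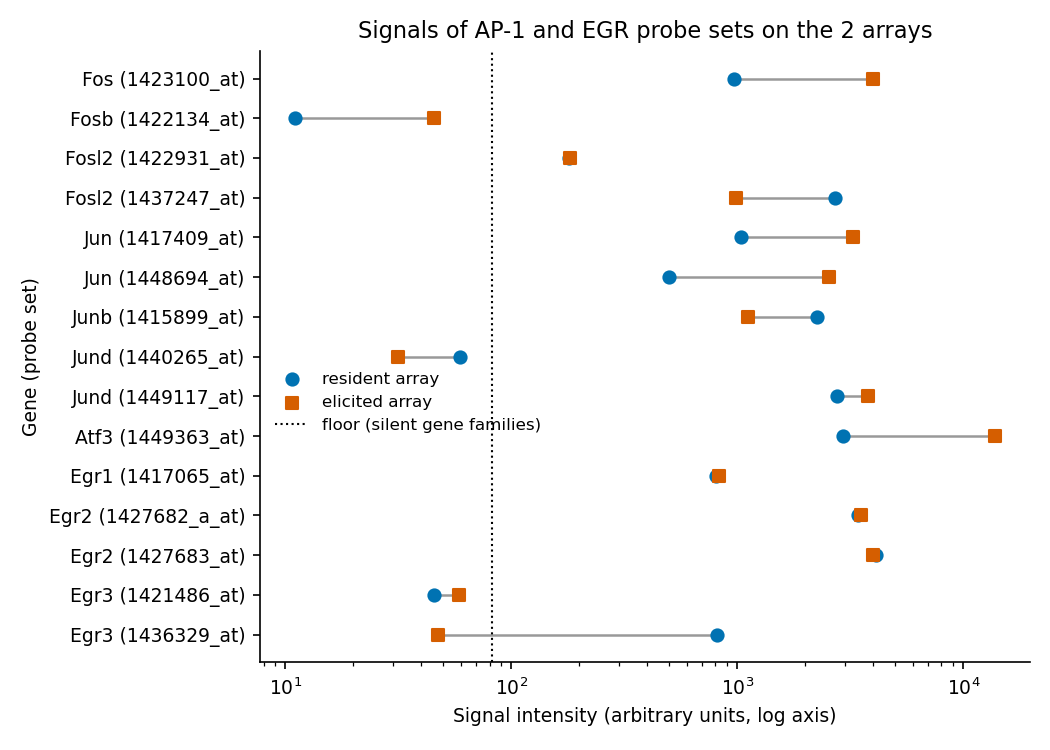
Signal intensity on a log axis for the 15 probe sets of the 10 genes, with the resident array as circles, the elicited array as squares and the floor of 82.2 as a dotted line. Squares lie to the right of circles for Fos, both Jun probe sets, Atf3 and, by less, 1 probe set of Jund, and to the left for Junb, 1 probe set of Fosl2 and 1 of Egr3. Both signals of Fosb and of the second probe sets of Jund and Egr3 lie left of the floor.

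All 10 macrophage markers were above the floor on each array. In elicited cells 1 of them was higher by 2-fold or more (Fcgr1, 2.55-fold) and 2 were lower (Itgam, 2.99-fold, and Cd14, 2.73-fold). The 2 probe sets of Fcgr1 gave log2 ratios of 1.35 and 0.60, the latter within 2-fold. Csf1r, the receptor for the growth factor CSF1, read 36845 in resident and 32074 in elicited cells (log2 ratios from -1.76 to -0.20 over its 3 probe sets), the lysozyme gene Lyz2 read 31855 and 39953, and the lysosomal marker gene Cd68 read 22834 and 40130.1. Markers of other cells differed between the arrays. Of 9 measured B cell markers, 7 were lower by 2-fold or more in elicited cells, and the list's summed signal was 25626 in resident and 4961 in elicited cells. Of the 2 within 2-fold, Cd22 read 2269 in resident and 4078 in elicited cells (1.80-fold higher), most of the elicited sum. No B cell marker was listed at 0, and in elicited cells Cd79a and Fcrla did not exceed the floor. All 5 mast cell markers above the floor (of 7 measured, summed signals of 2503 and 145) and 3 of 4 dendritic cell markers above it (of 7 measured, summed signals of 1607 and 307) were lower by 2-fold or more, and no marker of either list exceeded the floor in elicited cells. The ratios of these 2 lists are therefore bounds that could only point lower. Of 12 markers of mesothelium and fibroblasts, 9 were higher by 2-fold or more, and the summed signal was 764 in resident and 16540 in elicited cells, where Msln alone did not exceed the floor. In resident cells only 4 of the 12 exceeded it, so 7 ratios of this list are bounds that could only point higher. Of 5 T cell markers, 4 were above the floor, of which 2 were lower and 1 higher (summed signals of 751 and 411). Of 9 neutrophil markers, 3 were above the floor (summed signals of 12071 and 8437 over the list). Csf3r was 2.38-fold and Mmp8 2.24-fold lower, and S100a8 was within 2-fold (3663 and 4675). The part of these cells in the members' differences was not tested. In whole-population RNA, fewer cells of a type and less RNA per cell cannot be told apart.

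Fos encodes the founding FOS protein, which pairs with JUN proteins. Its single probe set read 966 in resident and 3990.2 in elicited cells. The elicited signal was 4.13-fold higher, a log2 ratio of 2.05, and 193 of the 11499 genes (1.68%) had a higher ratio. Jun encodes the central partner of AP-1 dimers and was read by a pair of probe sets. The brighter one read 1042 in resident and 3244 in elicited cells, 3.11-fold higher, and the other one 496 and 2548, 5.13-fold higher. Both thus pointed the same way, with log2 ratios of 1.64 and 2.36. The only spread these arrays allow is the one among probe sets of 1 gene. Over 4465 genes with several measured probe sets this SD came to 0.48 (log2), and both Jun ratios exceed it. That SD covers disagreement among probe sets within these arrays. It does not cover animals, cultures or a difference shared by all probe sets of an array.

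Atf3 encodes a stress-induced ATF protein that pairs with JUN proteins and is known to restrain inflammatory genes in macrophages. Its probe set read 2946 in resident and 13770.3 in elicited cells. This was 4.67-fold higher (log2 ratio 2.22), and 163 genes (1.42%) had a higher ratio. As deposited, it was the highest ratio of the members when each was taken by its brightest probe set. The dimmer Jun probe set had a higher ratio (2.36), and with quantile normalization or loess Fos ranked above Atf3. Fos and Atf3 also passed 4-fold, as did the dimmer Jun probe set alone (5.13-fold). Of all genes 1.77% did so in this direction, but for Fos and Atf3 this depended on the scaling. On the hybridisation controls Fos was 3.36-fold and Atf3 3.80-fold higher, with loess Fos was 3.998-fold and Atf3 3.76-fold higher, and with quantile normalization Atf3 was 3.92-fold higher. Relative to the all-gene median, the log2 ratios were 2.26 for Atf3, 2.08 for Fos and 1.67 for Jun. The ratios of Fos and Atf3 differed by 0.18 on the log2 scale, less than the SD between probe sets.

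The 250 bases before the RefSeq start of these 3 genes (build GRCm38.p6) are shown because AP-1 and ATF proteins can bind the promoters of their own family. Capitals mark matches on either strand to the AP-1, CRE, CArG and EGR motifs; the TATA box (TATAAA) and the ETS motif CCGGAA were searched too and stay in lower case. The Fos window is chr12:85473640-85473889 on the plus strand, the Jun window chr4:95052223-95052472 on the minus strand and the Atf3 window chr1:191183334-191183583 on the minus strand.
Fos: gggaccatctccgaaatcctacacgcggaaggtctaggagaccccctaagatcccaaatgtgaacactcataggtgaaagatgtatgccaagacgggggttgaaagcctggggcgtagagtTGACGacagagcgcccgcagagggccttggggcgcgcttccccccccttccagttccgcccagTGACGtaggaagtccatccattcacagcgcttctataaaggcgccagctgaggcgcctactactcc
Jun: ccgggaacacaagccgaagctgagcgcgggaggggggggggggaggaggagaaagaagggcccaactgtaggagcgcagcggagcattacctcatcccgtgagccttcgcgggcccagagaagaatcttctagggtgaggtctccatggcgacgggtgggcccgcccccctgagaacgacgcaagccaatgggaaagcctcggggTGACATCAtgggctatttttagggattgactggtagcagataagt
Atf3: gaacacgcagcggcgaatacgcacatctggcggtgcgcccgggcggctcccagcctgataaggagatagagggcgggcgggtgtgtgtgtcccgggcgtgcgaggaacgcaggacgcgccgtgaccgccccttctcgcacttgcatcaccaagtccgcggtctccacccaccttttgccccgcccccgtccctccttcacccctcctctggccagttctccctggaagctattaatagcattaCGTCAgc

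The Jun window holds TGACATCA, ending 38 bases before the start, which matches the motif TGACNTCA, the form of the cyclic AMP response element (CRE) that JUN and ATF dimers bind. This motif occurs in 7.43% of 32536 promoter windows of the same length. The Fos window holds TGACG, the CRE core, at 2 places that end 125 and 62 bases before the start. The Atf3 window holds its reverse complement CGTCA 3 bases before the start. The Fos window also holds TATAAA, ending 28 bases before the start, as 12.3% of windows do. The CRE core is found in 17.9% of windows. It was counted on its own and can lie inside a full CRE. The AP-1 motif TGANTCA (6.73% of windows) and the CArG box, the site of serum response factor (1.48%), are in none of these 3 windows, nor is the ETS motif (12.1%). Sites farther from the start were not searched, and a match is a description of letters, not of binding.

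Another FOS gene and another JUN gene were lower in elicited cells. Fosl2 encodes FRA2, a FOS protein that lacks the strong activation domain of FOS and tends to persist after a stimulus. Its brighter probe set read 2717 in resident and 981 in elicited cells, 2.77-fold lower (log2 ratio -1.47). The other was dim, at 181 and 183, with a log2 ratio of 0.02. The 2 probe sets therefore disagreed, and the median over both was -0.73, which is within 2-fold. Junb encodes a JUN protein that can oppose JUN at some target genes. Its probe set read 2247 in resident and 1112 in elicited cells, 2.02-fold lower (log2 ratio -1.02), which is at the edge of the threshold. With equal medians Junb was 1.63-fold lower and with quantile normalization 1.94-fold lower, so its place outside 2-fold depended on the scaling while its direction held under all 5 scalings.

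The upstream windows of the lower AP-1 members, shown for comparison with those of Fos, Jun and Atf3, are chr5:32136222-32136471 on the plus strand for Fosl2 and chr8:84978749-84978998 on the minus strand for Junb.
Fosl2: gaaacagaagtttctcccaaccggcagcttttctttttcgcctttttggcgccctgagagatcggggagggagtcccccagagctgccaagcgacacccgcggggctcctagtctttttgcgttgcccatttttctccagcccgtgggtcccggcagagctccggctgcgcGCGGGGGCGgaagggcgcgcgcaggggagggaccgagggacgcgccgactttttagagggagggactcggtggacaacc
Junb: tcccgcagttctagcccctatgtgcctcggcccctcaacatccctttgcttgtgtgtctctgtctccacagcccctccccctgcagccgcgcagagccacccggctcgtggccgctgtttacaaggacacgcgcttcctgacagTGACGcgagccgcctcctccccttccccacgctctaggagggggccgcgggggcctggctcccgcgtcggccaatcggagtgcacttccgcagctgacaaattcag

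The Junb window holds 1 CRE core, TGACG, and neither of the full motifs TGACNTCA and TGANTCA. The Fosl2 window holds no CRE core but has GCGGGGGCG, a match to the EGR motif GCGNGGGCG that 4.74% of windows hold. The same letters stand in the window of Fosb, whose signals of 11.0 and 45.3 were below the floor on both arrays. The Jund window holds none of these motifs. Its GC content was 47.6%, against 58.4% for Fos, 61.2% for Jun, 65.2% for Atf3, 64.4% for Fosl2 and 66.4% for Junb. RefSeq windows matched 8 of the 10 members; Egr1 and Egr3 were not matched.

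Jund encodes the most constant JUN protein, present in resting cells. Its main probe set read 2753 in resident and 3781 in elicited cells, 1.37-fold higher (log2 ratio 0.46), which is below the SD between probe sets. A second Jund probe set was below the floor on both arrays, at 59.4 and 31.4. The JUN subfamily thus spanned both directions. The log2 ratio of Jun exceeded that of Junb by 2.65 (6.29-fold) and that of Jund by 1.18 (2.27-fold). The ratio of Fos exceeded that of Fosl2 by 3.51 (11.4-fold) with the brighter Fosl2 probe set but by 2.03 (4.09-fold) with the other. With the second Jun probe set, Jun exceeded Junb by 3.38 (10.4-fold). Such differences between members are left as they are by any array-wide factor.

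**Figure D2:**
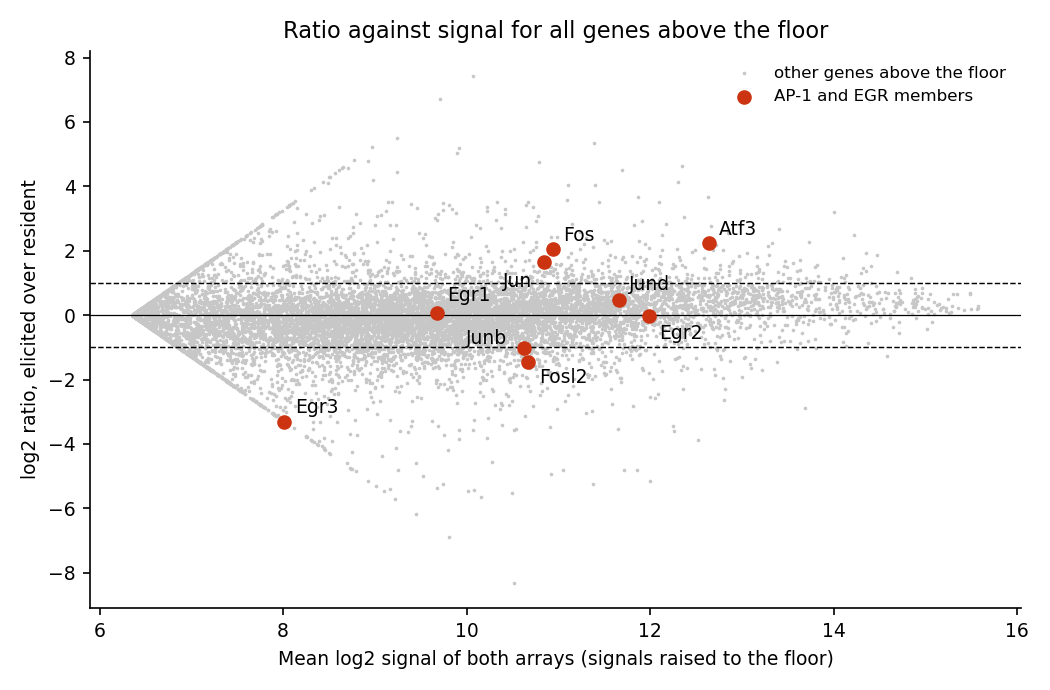
The log2 ratio of elicited over resident signal against mean log2 signal, 1 point a gene above the floor on at least 1 array, with dashed lines at 2-fold and the 9 measured members named. Atf3, Fos and Jun lie above the upper line, Egr3, Fosl2 and Junb on or below the lower one, and Jund, Egr1 and Egr2 between them; points on the slanted edges, Egr3 among them, are bounds against the floor.

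Among the EGR genes, Egr1 encodes the most studied member, a sensor of growth factor and MAP kinase signals. Its probe set read 802 in resident and 833 in elicited cells, a log2 ratio of 0.05. Egr2 encodes a zinc finger factor known from macrophage and Schwann cell differentiation. Both of its probe sets were bright and close to even, with 4113 and 3999.6 for the brighter and 3402 and 3531 for the other (log2 ratios of -0.04 and 0.05). The sign of Egr1 and Egr2 turned between scalings, from -0.25 to 0.36 for Egr1 and from -0.34 to 0.27 for Egr2, and stayed within 2-fold throughout. Fos exceeded Egr1 in log2 ratio by 1.99 (3.98-fold) and Jun exceeded it by 1.59. All 3 are known targets of MAP kinase signals. Among the members' windows a CArG box stood upstream of Egr2 alone, as CCATATATGG in the overlapping windows of 3 of its 5 annotated starts and as CCTTTTTTGG for another. Egr1 and Egr3 had no window, so they were not searched for it.

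Egr3 encodes an EGR protein often induced through EGR1 and known from lymphocytes. Its brighter probe set read 813 in resident cells and 47.4, below the floor, in elicited cells. It was therefore at least 9.89-fold lower, at least 8.78-fold against the floor of 92.7 that the silent families gave on the resident array alone, or at least 4.66-fold against their 99th percentile of 174. Its second probe set was below the floor on both arrays, at 45.6 and 58.5, so the 2 probe sets disagreed on whether Egr3 was present on the resident array at all. The difference rests on a single probe set. The B cell, mast cell and dendritic cell markers given above were lower on the same array, and their part in it was not tested.

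Ratios between arrays depend on how the arrays are scaled, so the members were also computed under 4 other scalings. These moved the all-gene median of the log2 ratio to 0.25 with equal medians (over measured probe sets), 0.16 with quantile normalization, 0.07 after removing a loess trend with signal and -0.30 on the 9 spiked hybridisation controls. Of all genes at least 2-fold apart, the share that was higher was 40.5% as deposited and 65.8%, 58.1%, 50.0% and 21.6% in that order. The log2 ratio of Fos ranged from 1.75 to 2.35 over these 5 scalings, that of Jun from 1.34 to 1.95 and that of Atf3 from 1.91 to 2.53. Jund, at 0.16 to 0.77, was on the higher side under all 5 but never reached 2-fold. Fosl2 ranged from -1.77 to -1.16, Junb from -1.31 to -0.71 and Egr3 from -3.38 to -3.13. Of the 9 members, 3 were higher under each of these scalings, and 3 were lower except with equal medians and quantile normalization, where 2 were.

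**Figure D3:**
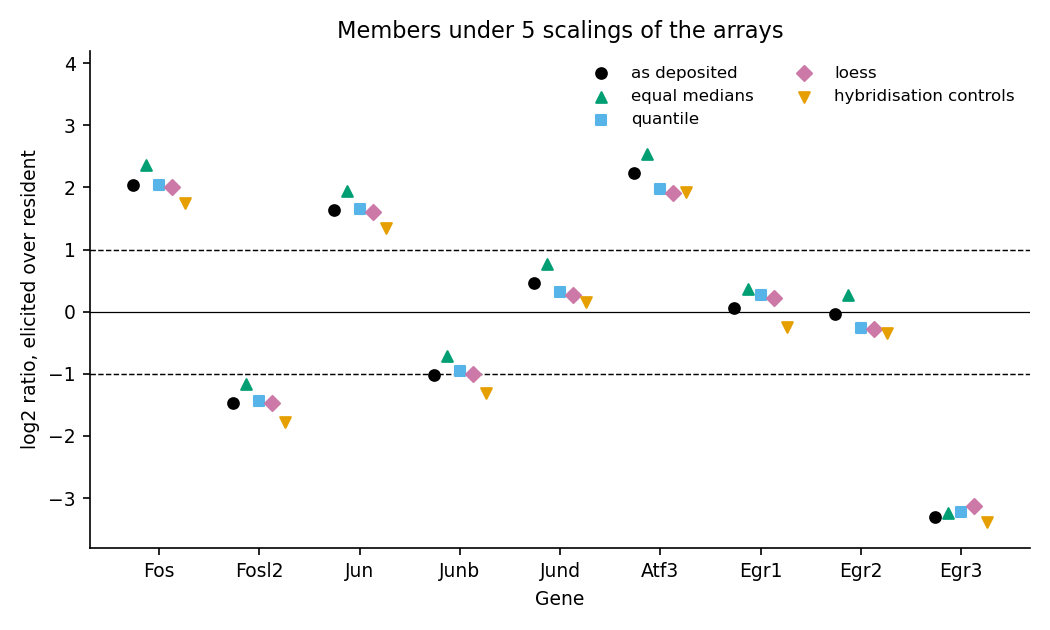
The log2 ratio of elicited over resident signal for the 9 members above the floor under 5 scalings of the arrays, with dashed lines at 2-fold. Fos, Jun and Atf3 stay above the upper line and Fosl2 and Egr3 below the lower one under all 5, Junb crosses the lower line, and the values of Egr3 are bounds.

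Other immediate early genes were also split. Of 26 measured, 23 were above the floor. Of these, 8 were higher and 6 lower by 2-fold or more, beside 8.04% and 11.8% of all genes. The median log2 ratio was 0.20 (-0.08 on the hybridisation controls). Rgs1, a brake on G protein signalling from chemokine receptors, read 633 in resident and 7531 in elicited cells (11.9-fold higher). The growth arrest and stress genes Gadd45b (526 and 5432, 10.3-fold) and Gadd45g (222 and 2234, 10.1-fold) were close behind, although Gadd45b varied from 0.71 to 3.45 in log2 ratio over 3 probe sets. The polo-like kinase gene Plk2 was 4.88-fold higher, while its relative Plk3 was 5.16-fold lower (449 and 87.0). Dusp1, the phosphatase that switches off p38 and JNK, was 3.23-fold higher. The matrix protein genes Ccn1 (4.86-fold) and Ccn2 (4.84-fold) and the kinase gene Sgk1 (2.92-fold) were the remaining 3 that were higher. Ccn1 and Ccn2 are also strongly expressed by stromal cells, whose markers were higher on this array, and their part was not tested. Besides Plk3, the genes that were lower were Ier3 (4.61-fold), the quiescence factor gene Klf2 (4.31-fold), Nr4a1 (3.92-fold), an orphan nuclear receptor known from patrolling monocytes, and the RNA-binding and antiproliferative genes Zfp36l1 (3.58-fold) and Btg2 (3.13-fold). The 2 probe sets of Btg2 gave log2 ratios of -1.64 and -0.56, the latter within 2-fold. Egr4, the remaining EGR gene, was below the floor on both arrays (63.5 and 38.6). Among the genes within 2-fold, Ier2 read 2156 and 1530, Zfp36 read 3681 and 2878, Klf6 read 3551 and 6302 and Myc read 442 and 507. Beyond Rgs1, Gadd45b, Gadd45g, Plk2, Plk3 and Egr4, these genes were chosen after their values were seen.

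Of the other basic leucine zipper genes that share AP-1 sites or partners, 13 were measured and all were above the floor. Batf3, a partner of JUN known from dendritic cells, was 2.25-fold higher (252 and 568), and Atf2, which pairs with JUN, was 2.36-fold lower (2958 and 1255), with 4 probe sets between -1.44 and -1.02. The other 11 lay within 2-fold, as 80.2% of all genes did, and the list median was 0.15 (-0.15 on the hybridisation controls). Atf4, the integrated stress response factor that acts upstream of Atf3, had signals of 4694 and 9154 (1.95-fold higher). Its 2 probe sets above the floor gave log2 ratios of 0.96 and 1.44, so its place within 2-fold depended on the probe set. Fosl1, the FOS-family gene outside the 10 members, was near the floor on both arrays (86.4 and 96.1).

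Of 11 measured genes of the upstream list (serum response factor, its partners, CREB and MEF2), 4 were at least 2-fold lower and 1 was higher (median -0.66). Over all genes the shares lower and higher were 11.8% and 8.04%. Srf itself read 634 in resident and 446 in elicited cells (1.42-fold lower). The ETS partner gene Elk4 was 3.60-fold lower, though its 3 probe sets above the floor ranged from -1.85 to 0.52. The MEF2 genes Mef2c (2.84-fold), Mef2d (2.03-fold) and Mef2a (2.00-fold) were the other 3, and Mrtfb, an actin-sensing coactivator of serum response factor, was 2.32-fold higher. Over their probe sets the log2 ratios ranged from -1.02 to -0.79 for Mef2d and from 0.67 to 1.21 for Mrtfb. Mef2c is also a B cell gene, and B cell markers were lower in elicited cells; their part was not tested. The median log2 ratio of the MAP kinase cascade genes was -0.25, and 0.06 with equal medians. Of 18 measured, 4 were at least 2-fold lower and none at least 2-fold higher, beside 11.8% and 8.04% of all genes. These were Rps6ka5, which encodes the kinase MSK1 that acts on chromatin of immediate early genes (4.26-fold), Map3k5 (4.21-fold), Braf (2.85-fold, its 8 probe sets between -1.91 and -0.23) and Mapkapk2 (2.08-fold). Rps6ka5 read 415 in resident and 97.6 in elicited cells, the latter near the floor. With quantile normalization or loess 1 cascade gene was at least 2-fold higher.

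Of the corepressors and turnover factors, Nab1 and Nab2 bind EGR proteins and repress their activity. Nab1 had signals of 3099 and 1457 (2.13-fold lower) and Nab2 of 845 and 656 (1.29-fold lower). Over its 3 probe sets Nab1 ranged from -1.09 to -0.70 in log2 ratio. Cops5, a coactivator of JUN, was 1.63-fold higher. Of 6 measured genes Nab1 alone passed 2-fold, beside 19.8% of all genes (with equal medians none was lower and 1 was higher).

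Genes known as targets of AP-1 or EGR factors had no common direction. Of 21 measured, 3 were higher and 5 lower by 2-fold or more, beside 8.04% and 11.8% of all genes. The median log2 ratio was 0.00 (from -0.30 to 0.31 over the scalings). Ccl2, the monocyte chemoattractant gene, had signals of 354 and 1615 (4.57-fold higher), the protease inhibitor gene Timp1 of 227 and 1029 (4.53-fold higher) and the elastase gene Mmp12 of 12975 and 33555 (2.59-fold higher). Timp1 and Ccl2 are also made by stromal cells, whose part was not tested. Thbs1, which encodes the matrix protein thrombospondin 1, had signals of 16078 and 1466 (11.0-fold lower). The cytokine gene Il1b was 9.48-fold and the gelatinase gene Mmp9 3.26-fold lower, the cyclooxygenase gene Ptgs2 at least 2.75-fold and the glutathione synthesis gene Gclm 2.28-fold lower. The number of higher targets was 7 with equal medians, 6 with quantile normalization and 5 with loess. Mmp12, Ptgs2 and Gclm were chosen after their values were seen.

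Heat shock chaperone genes are known to be induced, like Fos and Jun, when cells are handled. Of 11 chaperone genes measured, 1 was higher and none lower by 2-fold or more, beside 8.04% and 11.8% of all genes (3 were higher with equal medians and 2 with quantile normalization), and the median log2 ratio was 0.48. That gene was Hspb1, a small heat shock protein (226 and 852, 3.78-fold). Signals in resident and elicited cells were 252 and 309 for the stress-inducible gene Hspa1a, 496 and 308 for Hspa1b and 1718 and 1394 for the cochaperone gene Dnajb1. Hspa1a and Hspa1b are near-identical copies, so their signals can mix. The part of handling in the members' differences was not tested. As a sign of RNA integrity, the beta-actin controls gave 3' to 5' signal ratios of 1.19 in resident and 1.22 in elicited cells, and the Gapdh controls 0.587 and 0.5999.

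**Figure D4:**
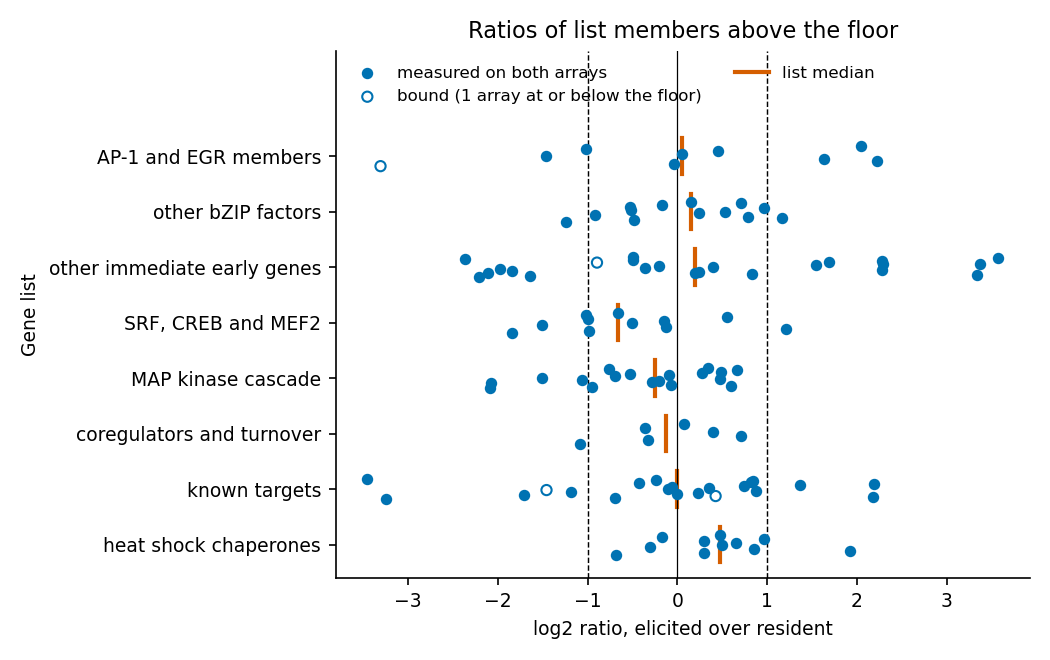
The log2 ratio of elicited over resident signal for each gene above the floor in 8 lists, 1 point a gene, with open circles for bounds, bars for list medians and dashed lines at 2-fold. The members and the other immediate early genes lie on both sides of the lines, while 10 of the 11 heat shock genes and 5 of the 6 coregulator genes lie between them.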

How the data were processed

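RNA of 2 samples was measured on 1 Affymetrix 3' expression array each. The deposited values are linear signal intensities that the authors computed (MAS5 is the tool named, per the submitters' processing notes, with no version). Both arrays have a trimmed mean (lowest and highest 2% left out) of 500.0, so they were scaled to it, and no further scaling was applied for the results given. Probe sets took their gene from the platform annotation, and symbols were renewed through gene IDs of the RefSeq table (34754 of 34958 matched); the 932 that list several genes and the 9211 with no gene listed were left out.

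Signals were raised to the floor before log2, so a ratio is a bound where 1 array does not exceed it. Of several probe sets, the one with the highest mean log2 signal stood for the gene. With 1 array per group no test was run, and a 2-fold difference was the threshold. The members and lists were chosen with earlier results of these data known. All 10 members, up to 5 genes of each other list by absolute log2 ratio, 8 preset genes and the 3 brightest markers of each cell type were to be named. The 3 brightest markers were in the end all named for macrophages and neutrophils alone. The markers Fcgr1, Itgam, Cd14, Cd79a, Fcrla and Msln were outside this rule and were chosen after their values were seen. As a pattern over 2 arrays is a single ratio, no genes were named for likeness to a member. Promoter windows came from RefSeq (GRCm38.p6). Alternatives changed the scaling, the floor and the probe set choice. The calculations were tested on simulated data. Python 3.11.15, numpy 2.4.6, pandas 2.3.3 and statsmodels 0.14.6 were used.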

Additional observations from a re-analysis of the deposited data

How the results depend on the processing

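No paired analysis was possible because each group is 1 array. None of the called members turned its sign under the 10 alternatives of scaling, floor and probe set. Higher members numbered 3 under each of them, and lower members 3 or 2, since Junb (with equal medians, quantile normalization or the floor as a pseudocount) or Fosl2 (with the median over probe sets) came within 2-fold. When only members above the floor on both arrays were counted, 3 were higher and 2 lower, as Egr3 is a bound. Egr3 moved most, with log2 ratios of -2.22 with the floor at the 99th percentile (174), -4.07 with a pseudocount of 1, -2.79 with the floor as a pseudocount and -1.65 as the median over probe sets. Fosl2 moved to -0.73 as that median. With equal medians, 1672 of all genes were at least 2-fold higher and 870 lower; higher were 4 other basic leucine zipper genes, 1 coregulator, 7 targets and 3 heat shock genes, and lower were 0 leucine zipper genes, 2 of the serum response factor list and 0 coregulators. With quantile normalization, 3 leucine zipper, 1 MAP kinase, 6 target and 2 heat shock genes were higher. With loess, 2 leucine zipper, 1 MAP kinase and 5 target genes were higher. On the hybridisation controls, whose elicited signals were 1.23-fold higher (9 of 9 probe sets), 576 of all genes were higher and 2092 lower, with 0 leucine zipper genes higher and 2 lower and 0 of the serum response factor list higher. With the floor as a pseudocount 0 leucine zipper genes were higher and 2 of the serum response factor list lower, and with the median over probe sets 0 of that list were higher and 2 lower. The cause of these shifts was not tested. Signals under 82.2 cannot be told from background, which limits Fosb, Egr4 and Egr3.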
